A study of Mus musculus with 22 samples.

Results

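The 8 cholesterol synthesis enzymes Hmgcs1, Mvd, Fdps, Fdft1, Sqle, Lss, Cyp51 and Dhcr7 were followed through 22 fractions of the mouse brain. They are 8 of the 20129 gene symbols that RefSeq identifiers on the arrays matched. The members were a given list of pathway genes, and each was read from its RefSeq-identified probe with the highest median over the 22 arrays. All 8 probes were well above background on all 22 arrays. A level is log2 of the processed intensity of a spot minus the 75th percentile of its array, so a level of 0 is the brightness of the 75th percentile, and levels of different probes are not compared. Fdft1 alone had a second probe, which was well above background on 12 arrays.

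Transcriptome Tomography slices a whole brain along one body axis, pools neighbouring slices into slabs and measures each slab, called a fraction, on a microarray. The coronal series held 10 fractions of the brain of mouse 1, the horizontal series 6 fractions of mouse 2 and the sagittal series 6 fractions of mouse 3. All 3 mice were males of the inbred strain C57BL/6J, with no treatment named. Their age is 7 days after birth in the sample titles and 3 days in the age field. Coronal fraction 10 pooled slabs 10 to 11, sagittal fraction 1 pooled slabs 1 to 2 and sagittal fraction 6 pooled slabs 7 to 9. A fraction was measured once and a series came from 1 animal, so no value has a replicate and mouse, slicing plane and series cannot be told apart. In bulk samples, fewer cells of a type and less RNA per cell cannot be told apart either.

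An array had between 29605 and 41965 probes well above background. The slope of the spike-in transcripts was outside the accepted range of the scanner software on 7 arrays. These were fractions 1 and 2 of the coronal series, 1 to 3 of the horizontal series, and 1 and 3 of the sagittal series. The spike-in probe a107 lay between 6.38 and 8.23 on these arrays and between 2.86 and 4.96 on the other 15. The arrays lay on 4 slides, with coronal fractions 1 and 3 to 8 on slide 1, coronal fraction 2 on slide 2, coronal fractions 9 and 10 with the sagittal series on slide 3 and the horizontal series on slide 4. Brain markers were present throughout, since 8 of 8 neuron markers and 8 of 8 astrocyte markers were well above background on every array. All 4 hindbrain position markers fell with the coronal fraction number and all 6 markers of cortex and olfactory bulb rose, so fraction 1 lay at the hindbrain end.

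Cholesterol is made in almost every cell from acetyl-CoA, through mevalonate, the isoprenoid farnesyl diphosphate, squalene and lanosterol. Plasma lipoproteins hardly cross the blood-brain barrier, so the brain makes its own cholesterol, and much of it goes into myelin, the membrane sheath that oligodendrocytes wrap around axons after birth. Transcription of the pathway is driven by sterol regulatory element-binding proteins (SREBP), which Scap carries out of the endoplasmic reticulum when sterols are low and Insig proteins hold back when sterols are high. Mbp, myelin basic protein, served as the reference for myelination.

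Promoters of the members are shown for the sterol regulatory element (SRE) that SREBP binds and for the boxes of its partner NF-Y. RefSeq windows from 250 bases before to 50 bases after a transcription start on GRCm38.p6 were at hand for 5 of the 8 members, 7 windows in all. Hmgcs1 has its window at chr13:119690101-119690400 (+ strand), Lss at chr10:76531355-76531654 (+ strand), Cyp51 at chr5:4104648-4104947 (- strand), and the third of 3 windows of Dhcr7 lies at chr7:143829964-143830263 (+ strand). Hmgcs1 is printed because it alone held the SRE core, and Lss, Cyp51 and Dhcr7 because their levels followed each other most closely over all fractions. Capitals mark the SRE core TCACNCCAC and the NF-Y box CCAAT on either strand.
Hmgcs1: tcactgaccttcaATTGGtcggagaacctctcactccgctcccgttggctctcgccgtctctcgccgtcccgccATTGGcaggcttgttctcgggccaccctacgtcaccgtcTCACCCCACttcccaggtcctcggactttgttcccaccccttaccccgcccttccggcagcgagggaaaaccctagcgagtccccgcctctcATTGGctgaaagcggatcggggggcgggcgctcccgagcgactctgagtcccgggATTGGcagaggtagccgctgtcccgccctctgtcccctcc
Lss: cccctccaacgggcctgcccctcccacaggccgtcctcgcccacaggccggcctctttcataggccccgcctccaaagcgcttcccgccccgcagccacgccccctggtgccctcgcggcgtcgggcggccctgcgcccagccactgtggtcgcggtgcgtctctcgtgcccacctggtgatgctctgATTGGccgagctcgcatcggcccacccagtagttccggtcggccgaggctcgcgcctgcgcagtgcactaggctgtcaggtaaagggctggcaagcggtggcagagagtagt
Cyp51: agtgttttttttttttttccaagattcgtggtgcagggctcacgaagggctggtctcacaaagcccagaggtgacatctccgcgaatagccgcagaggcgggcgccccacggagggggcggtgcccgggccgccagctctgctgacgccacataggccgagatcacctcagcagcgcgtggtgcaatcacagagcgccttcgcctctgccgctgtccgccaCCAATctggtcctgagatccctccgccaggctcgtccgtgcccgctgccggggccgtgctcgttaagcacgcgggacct
Dhcr7: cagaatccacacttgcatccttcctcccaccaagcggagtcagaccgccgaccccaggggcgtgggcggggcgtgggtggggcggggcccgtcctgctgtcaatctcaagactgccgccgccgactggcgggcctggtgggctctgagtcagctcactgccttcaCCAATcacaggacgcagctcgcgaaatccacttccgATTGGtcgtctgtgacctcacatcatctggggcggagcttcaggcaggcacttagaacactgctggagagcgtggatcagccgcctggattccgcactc
The SRE core stood in 1 of the 7 windows, as TCACCCCAC starting 137 bases before the start of Hmgcs1, and in 1.24% of all 32851 windows. The Hmgcs1 window also held 4 NF-Y boxes. Lss and Cyp51 held 1 each, the Dhcr7 window shown held 2 and Mvd, whose window lies at chr8:122443373-122443672 (- strand), held 2. All 5 members thus had an NF-Y box in at least 1 window, against 41.1% of 27025 symbols with windows. All 5 also had a match to the Sp1 box GGGCGG, against 38.2% of the symbols. These are matches of letters, and binding was not measured. Forms of the SRE other than the core TCACNCCAC were not searched for.

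The SD of the level over 22 fractions was below the median of all probes tested (0.52) for 7 of the 8 enzymes, with a median of 0.33 over the members. It was below the median of the probes well above background on all 22 arrays (0.40) for 6 of the 8, and lists of similar genes had like medians, 0.33 for SREBP regulators and 0.35 for sterol transport genes. Fdps had the highest SD of the members, 0.77, and Dhcr7 had 0.43. Change along a series was tested in limma with 1 model over 22 arrays that gave every series its own straight and curved (quadratic) dependence on slab position, and p-values were adjusted over all 39621 probes that were well above background in at least 1 fraction of each series. The spread in this test is the scatter of single arrays around the curve and holds no spread between animals. The fitted range, from the lowest to the highest point of the curve, had a member median of 0.82 along the coronal series, 0.46 along the horizontal and 0.74 along the sagittal, against 0.99, 0.99 and 0.92 for all probes. For the coronal and horizontal series the p tests the linear and quadratic terms together, and rose or fell goes by the sign of the linear term of a gene that passed. The linear change below is the fitted difference between the last and the first fraction, and over all probes its median was -0.14 for the coronal series, -0.20 for the horizontal and -0.05 for the sagittal.

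**Figure D1:**
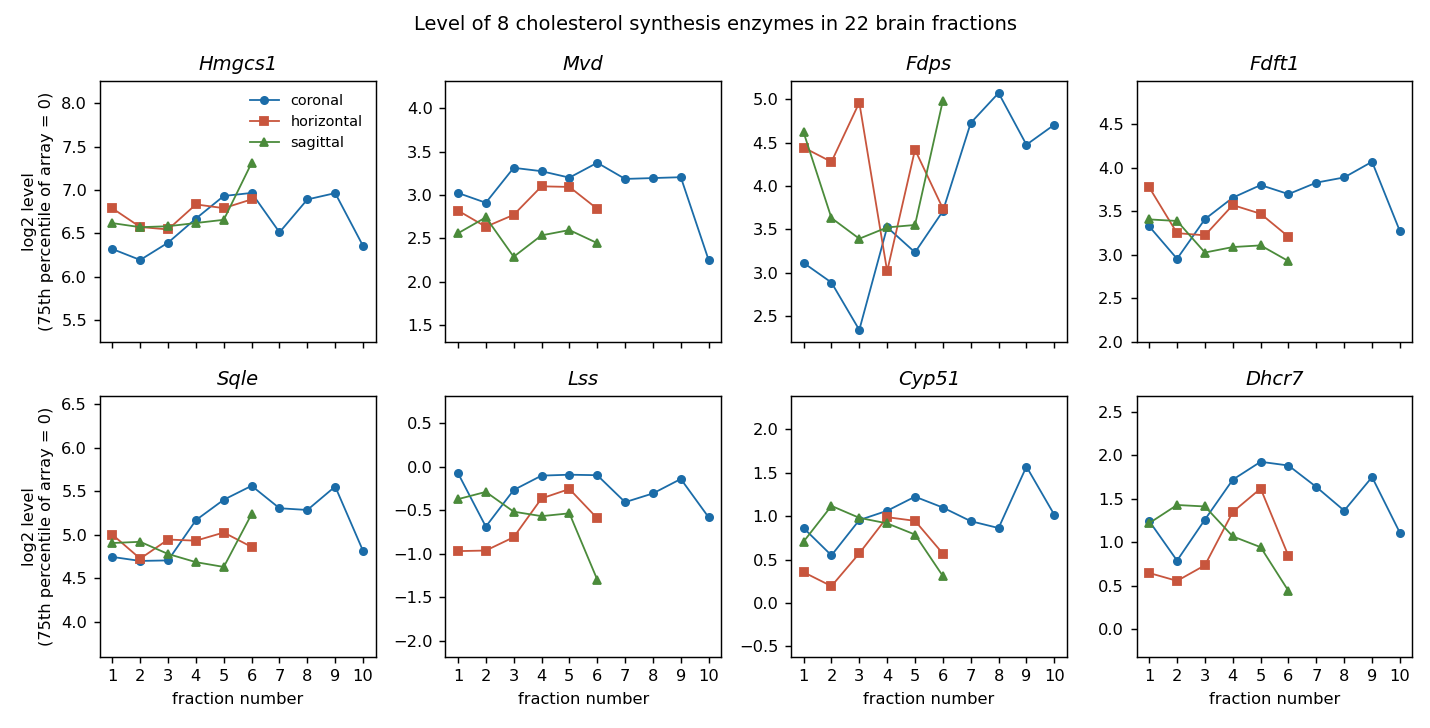
Log2 level (75th percentile of the array = 0) of each enzyme against fraction number in the coronal (circles, 10 fractions), horizontal (squares, 6) and sagittal (triangles, 6) series, 1 array per point and the same 3-unit height in every panel. Fdps moves most, by 2.73 log2 units over the 22 fractions, and the other enzymes stay within 0.93 to 1.49.

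Along the coronal series, Fdps was higher away from the hindbrain end, Sqle was higher in fractions 4 to 9 than at both ends, and Mvd also changed. These 3 of the 8 members passed the threshold of 0.05, where 19.8% of all probes did. By the sign of the linear term, 2 were positive (Fdps and Sqle), against 12.4% of all probes, and 1 was negative (Mvd), against 7.43%. With linear terms only, Fdps alone passed, against 7.12% of all probes. The unadjusted p was under 0.05 for 6 of the 8, and for 15384 of all 39621 probes.

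Fdps makes farnesyl diphosphate, the branch point from which squalene, isoprenoid anchors, dolichol and ubiquinone side chains are drawn. Its levels in coronal fractions 1 to 10 were 3.12, 2.89, 2.35, 3.53, 3.24, 3.71, 4.72, 5.07, 4.47 and 4.71. All of fractions 7 to 10 lay above all of fractions 1 to 6. The linear change was 2.40 ± 0.54 (SE), a 5.27-fold rise, with an adjusted p of 0.0191 in limma. The call held when any 1 of the 22 fractions was left out, with adjusted p between 0.00849 and 0.0454. It was lost with linear terms on the 15 in-range arrays, where both arrays and quadratic terms were left out (change 2.34, adjusted p = 0.0774, against 0.0250 with linear terms on all arrays), with the coronal arrays alone (adjusted p = 0.0801) and with slide as a fixed block (change 3.74, adjusted p = 0.0837). Along the same axis, where 12.4% of all probes rose and 7.43% fell, 4 of 8 neuron markers rose and 2 fell, with a mean level between 5.16 and 6.09, and 5 of 8 cell division markers fell and 1 rose, with a mean level between -0.92 and 1.73. Their part in the Fdps values was not tested.

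Sqle oxidises squalene in the first oxygen-dependent step and is a rate-controlling enzyme of the later pathway. Its levels in coronal fractions 1 to 10 were 4.74, 4.70, 4.70, 5.17, 5.40, 5.56, 5.30, 5.28, 5.55 and 4.81. Fractions 4 to 9 were all above fractions 1, 2, 3 and 10. The linear change was 0.53 ± 0.21 (SE), or 1.45-fold, and the adjusted p of both terms together was 0.0257 in limma. With linear terms only it was 0.269, and the level in fraction 10 was near that in fraction 1. Without coronal fraction 2 the adjusted p was 0.0645, without fraction 6 it was 0.0631, with a107 as a covariate 0.0976 and with slide as a fixed block 0.102 (change 0.17). With linear terms on the in-range arrays it was 0.862 (change 0.14) and with the coronal arrays alone 0.135.

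Mvd decarboxylates mevalonate diphosphate to isopentenyl diphosphate. Its coronal level ran from 2.25 in fraction 10, over a median of 3.20, to 3.37 in fraction 6. The other 9 fractions all lay at 2.91 or above. The linear change was -0.35 ± 0.21 (SE), and the adjusted p of both terms together was 0.0310 in limma. Without fraction 10 the change was 0.19 with an adjusted p of 0.414, so the call and its sign rested on that fraction. Without fraction 6 the adjusted p was 0.0647. Among the other settings it was 0.0516 without a detection filter, 0.0774 with a107 as a covariate, 0.202 with linear terms on the in-range arrays, 0.0864 and 0.218 with slide as a random and a fixed block, 0.124 with the coronal arrays alone and 0.452 with linear terms only.

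The remaining 5 members were lowest in coronal fraction 2, and none of them passed the threshold. Hmgcs1, which forms HMG-CoA at the entry to the pathway, ran from 6.20 in fraction 2 over a median of 6.59 to 6.97 in fraction 6, with a linear change of 0.41 ± 0.20 (SE) and an adjusted p of 0.05005. It passed with arrays centred on the median (0.0399), quantile normalization (0.0194), normexp background correction (0.0476), the authors' table and probes detected on all 22 arrays, and had 0.171 with slide as a fixed block and 0.356 with linear terms only. Fdft1, squalene synthase, ran from 2.95 in fraction 2 over a median of 3.68 to 4.07 in fraction 9, with a change of 0.53 ± 0.24 (SE) and an adjusted p of 0.0628. Its second probe gave a change of 0.52 ± 0.47 (SE) with an adjusted p of 0.203. Dhcr7, which reduces 7-dehydrocholesterol to cholesterol in the last step of one of the closing routes, ran from 0.79 in fraction 2 over a median of 1.50 to 1.93 in fraction 5, with an adjusted p of 0.107. Cyp51, the lanosterol 14-alpha-demethylase, lay between 0.55 in fraction 2 and 1.57 in fraction 9, with a median of 0.98 and an adjusted p of 0.312. Lss, which closes the sterol ring by making lanosterol, lay between -0.69 in fraction 2 and -0.07 in fraction 1, with a median of -0.20 and an adjusted p of 0.542. Fraction 2 was thus the lowest coronal fraction for 6 of the 8 enzymes, Sqle included. Its array was the only one on slide 2, its slope was out of range and its median correlation with the other coronal arrays was 0.85, against 0.93 to 0.97 for the others. The part of the array in the low values was not tested. Without coronal fraction 1, Hmgcs1, Fdft1 and Dhcr7 passed as well, making 6 of 8, where 27% of all probes passed, and without fraction 6 Fdps alone remained, where 12.3% did.

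Along the horizontal series none of the 8 enzymes passed the threshold in limma, where 6.57% of all probes did. None had an unadjusted p under 0.05, where 15041 of all 39621 probes had one. The adjusted p-values lay between 0.148 for Lss and 0.996 for Sqle. The lowest after Lss were those of Dhcr7 (0.201) and Cyp51 (0.209). Dhcr7 in horizontal fractions 1 to 6 was 0.65, 0.56, 0.74, 1.35, 1.62 and 0.84. Lss was -0.97, -0.96, -0.81, -0.36, -0.25 and -0.59, and Cyp51 was 0.35, 0.19, 0.57, 0.99, 0.94 and 0.57. Lss and Dhcr7 were lower in all of fractions 1 to 3 than in all of fractions 4 to 6, which is also the division between arrays with the spike-in slope out of range and in range, so position along this axis and the slope cannot be told apart. Across the 6 fractions r with a107 was -0.94 for Lss, -0.82 for Cyp51 and -0.84 for Dhcr7.

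Of the earlier enzymes, Fdps was 4.44, 4.28, 4.96, 3.02, 4.42 and 3.74 in horizontal fractions 1 to 6, without order. Hmgcs1 was 6.79, 6.57, 6.55, 6.83, 6.79 and 6.89. Mvd was 2.82, 2.63, 2.77, 3.10, 3.09 and 2.84. The Fdps levels spanned 1.94 log2 units, or 3.84-fold, against a residual SD of 0.55 in the model. The linear changes of Fdps, Hmgcs1 and Mvd were -0.72 ± 0.63 (SE), 0.21 ± 0.23 (SE) and 0.26 ± 0.25 (SE). Fdft1 was 3.77, 3.25, 3.22, 3.57, 3.47 and 3.21, and Sqle was 5.00, 4.72, 4.94, 4.93, 5.02 and 4.86. Sqle thus spanned 0.30 log2 units, or 1.23-fold, along this axis.

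The sagittal series crosses the brain from one side to the other, and no enzyme passed the threshold there. In limma 0 of 8 passed for the linear term (side to side; 10.2% of all probes passed) and 0 of 8 for the quadratic term (middle against both sides; 0.0303% passed). Unadjusted p-values were under 0.05 for Hmgcs1, Lss and Dhcr7 in the linear term and for Fdps in the quadratic term. Of all 39621 probes, 9526 had such a p in the linear term and 5859 in the quadratic term. The last fraction, which pooled 3 slabs at one side, lay apart from the others for Hmgcs1 and Lss. Hmgcs1 was 6.62, 6.57, 6.58, 6.62, 6.66 and 7.31 in fractions 1 to 6, so 5 fractions lay between 6.57 and 6.66 and fraction 6 was above them. Lss was -0.37, -0.29, -0.51, -0.57, -0.53 and -1.30, so fraction 6 was below all others. The linear change was -0.87 ± 0.28 (SE) for Lss, with an adjusted p of 0.0626, and 0.62 ± 0.25 (SE) for Hmgcs1, with an adjusted p of 0.133. Without sagittal fraction 6 the change was -0.24 with an adjusted p of 0.742 for Lss and 0.04 with an adjusted p of 0.946 for Hmgcs1, and 0 of all probes passed in limma (2200 had an unadjusted p under 0.05), which also holds for the sagittal calls of other genes given below. Lss passed in 5 of 14 other settings (a107 as a covariate, slide as a random or fixed block, no scaling and probes detected on all 22 arrays; the highest adjusted p of the 14 was 0.308) and in 2 of 22 fits that left out 1 fraction (coronal fraction 1 or 2).

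Dhcr7 was 1.22, 1.43, 1.41, 1.07, 0.94 and 0.44 in sagittal fractions 1 to 6, and Cyp51 was 0.71, 1.12, 0.98, 0.92, 0.79 and 0.31. Both were lowest in fraction 6, as Lss was. Fdps was 4.62, 3.63, 3.39, 3.52, 3.55 and 4.98, so both sides were above the 4 fractions between them, with an adjusted p of 0.205 for the quadratic term. Sqle was 4.90, 4.92, 4.78, 4.68, 4.63 and 5.24, highest in fraction 6. Mvd was 2.56, 2.74, 2.29, 2.54, 2.60 and 2.45, and Fdft1 was 3.40, 3.39, 3.02, 3.09, 3.11 and 2.92. The array of fraction 6 had the lowest 75th percentile of the 22 arrays, 259.7, against 446.2 to 603.9 on the other sagittal arrays, and this value is subtracted from all its levels. Without scaling every sagittal linear change was lower by 0.89, so those of Hmgcs1 (-0.27), Fdps (-0.51) and Sqle (-0.72) turned in sign, and over all probes 60 rose and 2705 fell in place of 3077 and 968. That array had its slope in range and a median correlation of 0.96 with the other sagittal arrays, which themselves ranged from 0.93 to 0.97.

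**Figure D2:**
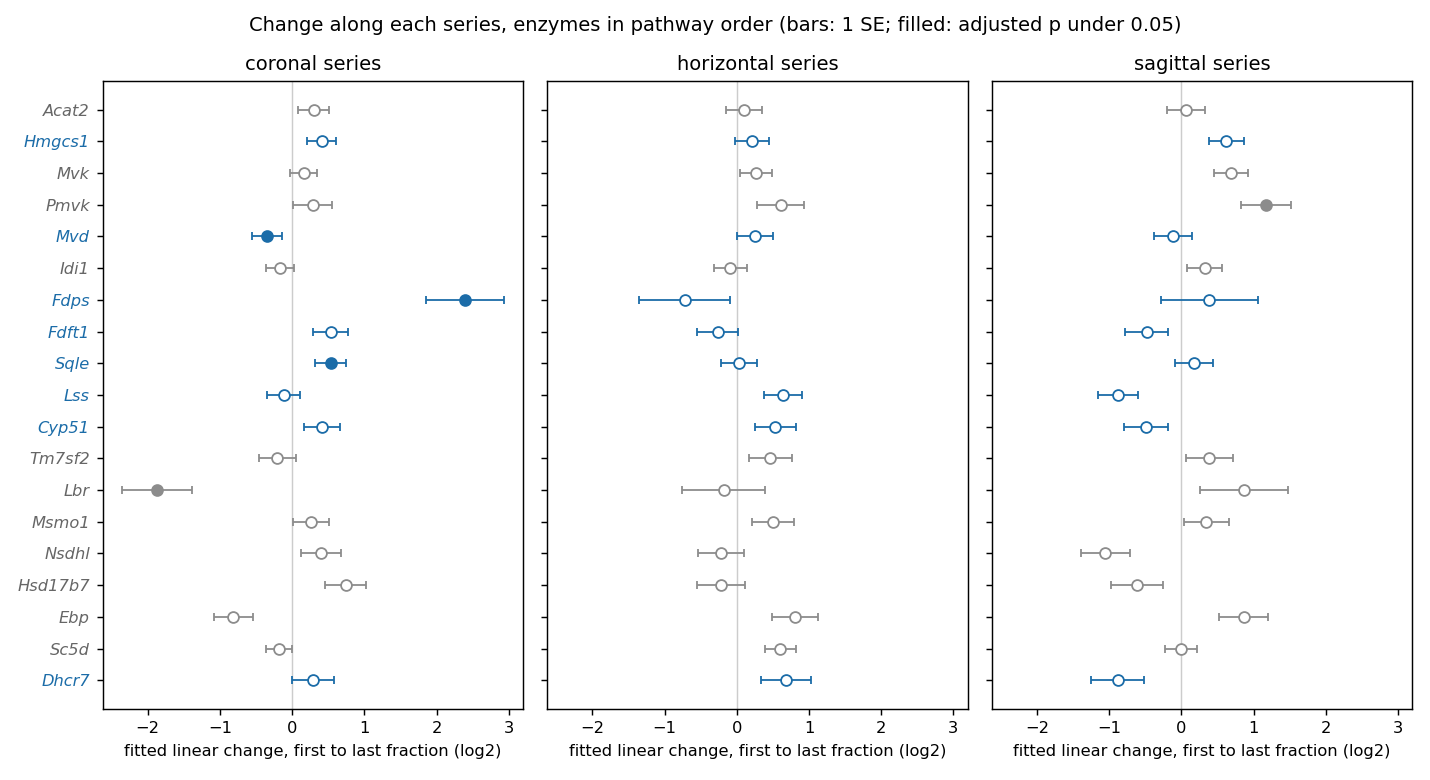
Fitted linear change from the first to the last fraction (log2, points) with 1 SE (bars) for 19 cholesterol synthesis enzymes in pathway order along the 3 series, members in blue and the other enzymes in grey. Filled points have an adjusted p under 0.05 in limma (for coronal and horizontal, of the linear and quadratic terms together), which for the members holds only for Mvd, Fdps and Sqle in the coronal series.

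Comparison with Mbp depended on the Mbp probe, because the 3 Mbp probes differed. The probe with the highest median, A_52_P604195, which the rule picks, had an SD of 0.30 over 22 fractions. The probe A_52_P329451 had an SD of 2.01 and fell along the coronal series from 5.46 in fraction 1 to -0.53 in fraction 10, with a linear change of -6.47 ± 0.69 (SE) and an adjusted p of 0.000247 in limma. The third probe, A_55_P1992160, had an SD of 0.34. Against the mean level of 14 other myelin genes over 22 fractions, r was 0.98 for A_52_P329451, -0.07 for A_52_P604195 and -0.04 for A_55_P1992160. A_52_P604195 carries 1 RefSeq transcript identifier of Mbp, and A_52_P329451 and A_55_P1992160 both carry another, although these differed. Where on the transcript each probe lies was not examined. Of 15 myelin genes tested with 1 probe each, 13 fell and 1 rose along the coronal series (7.43% and 12.4% of all probes) and 10 rose along the horizontal (where 6.57% of all probes passed, and calls over all probes fell from 2604 to 38 with a107 as a covariate, to 9 without horizontal fraction 1 and to 0 with the horizontal arrays alone), with Mobp at -7.88 ± 1.15 (SE) and Mag at -5.87 ± 0.80 (SE) in the coronal series. The 1 counted as rising was the Mbp probe A_52_P604195 itself, which passed with a linear change of 0.12 ± 0.21 (SE), a fitted range of 0.81 and its highest coronal level, 3.05, in fraction 6.

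The relation of the enzymes to the myelin genes differed by axis, and this was not tested. Along the coronal series the linear changes of the members lay between -0.35 and 2.40, while the myelin genes had a median of -3.92. Across the 10 coronal fractions r of the member mean with the mean of 14 myelin genes was -0.77, across the 6 horizontal fractions 0.72 and across the 6 sagittal fractions -0.55. Fdps ran most against them, with r of -0.82, -0.33 and -0.91 in the 3 series. Lss, Cyp51 and Dhcr7 went with them along the horizontal series, with r of 0.94, 0.85 and 0.85, as did Mvd with 0.77. Horizontal fractions 1 to 3 are the out-of-range arrays, and the horizontal r of these genes with a107 was -0.94, -0.82, -0.84 and -0.82. On the 15 in-range arrays of all series, their r with the myelin genes was 0.08, -0.20, -0.17 and 0.01. The part of the arrays in the horizontal values was not tested. Lss, Cyp51 and Dhcr7 had r of 0.04, -0.52 and -0.50 along the coronal series and 0.30, 0.68 and 0.38 along the sagittal. Without sagittal fraction 6 the sagittal values were -0.37, 0.69 and 0.06, so those of Lss and Dhcr7 rested on that fraction. Such r values describe neighbouring slabs of 1 brain that share slides and scaling, so they carry no p-value.

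With the Mbp probe A_52_P604195, r over the coronal series was 0.81 for Dhcr7, 0.71 for Sqle and 0.63 for Hmgcs1. In the sagittal series it was -0.99 for Hmgcs1 and 0.94 for Lss. Both sagittal values rested on fraction 6, where this Mbp probe was at 1.75 and at 2.60 or above elsewhere, and without it r was 0.29 for Hmgcs1 and -0.33 for Lss.

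**Figure D3:**
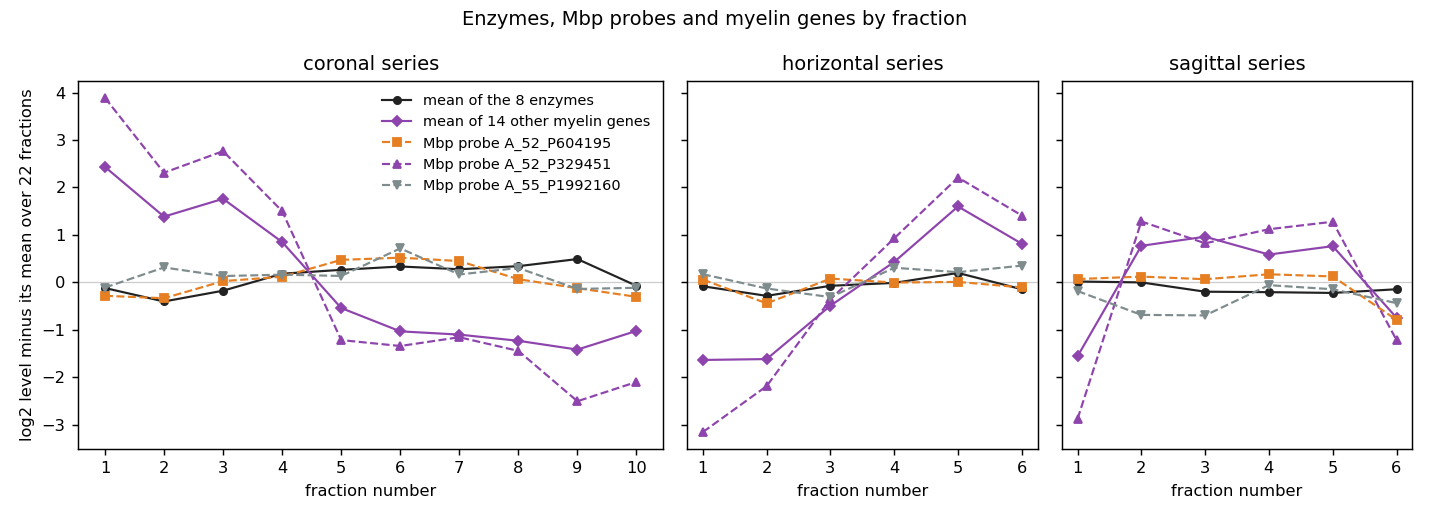
Log2 level minus its own mean over 22 fractions against fraction number for the mean of the 8 enzymes (black), the mean of 14 other myelin genes (solid purple) and the 3 Mbp probes (dashed), by series, 1 array per point. A_52_P329451 runs with the myelin genes, falling in the coronal series from 5.46 to -0.53 before centring, while the enzyme mean stays between -0.40 and 0.49 in all fractions.

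When each probe was taken minus Mbp on the same array, which cancels array scaling, the tests answer whether a gene follows that Mbp probe. Against A_52_P604195, Fdps differed along the coronal series (2.28 ± 0.55 (SE), adjusted p = 0.0103 in limma), so 1 of 8 members passed where 53.1% of all probes did. None of the 8 passed along the horizontal series, where 1.68% did. No member had an unadjusted p under 0.05 there, where 11498 of 39620 probes had one. In the sagittal linear term Hmgcs1 passed (1.34 ± 0.34 (SE), adjusted p = 0.00912), 1 of 8 against 26.4%, and without sagittal fraction 6 its change was -0.02 with an adjusted p of 0.985. In the sagittal quadratic term Hmgcs1, Fdps and Sqle passed, 3 of 8 against 12.2%, and none did when any of sagittal fractions 1, 3, 4, 5 or 6 was left out.

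Against A_52_P329451, a comparison chosen after the probes were seen to differ, all 8 members passed along the coronal series, with changes from 6.12 for Mvd to 8.87 for Fdps, and 93.7% of all probes passed too. All 8 passed along the horizontal series, from -6.04 for Fdps to -4.64 for Dhcr7, where 99.3% did, and in the sagittal quadratic term, where 97.4% did. In the sagittal linear term 0 of 8 and 0% of all probes passed. The members' shares were near those of all probes, since this Mbp probe itself changed, and so say nothing particular about the enzymes.

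Among themselves, over 22 fractions, the 28 pairs of enzymes had r between -0.39 and 0.90 with a median of 0.43. The closest were Lss with Dhcr7 (0.90), Cyp51 with Dhcr7 (0.88) and Lss with Cyp51 (0.83). On the 15 in-range arrays these were 0.91, 0.82 and 0.82. Within the coronal series they were 0.76, 0.75 and 0.59, within the horizontal 0.96, 0.94 and 0.95, and within the sagittal 0.91, 0.91 and 0.86. In the coronal series other pairs were closer, with Hmgcs1 and Sqle at 0.93, Fdft1 and Sqle at 0.88, Sqle and Dhcr7 at 0.87 and Hmgcs1 and Fdft1 at 0.87, and the median of the 28 coronal pairs was 0.59. In the horizontal series Mvd had 0.91 with Lss, 0.95 with Cyp51 and 0.94 with Dhcr7. Without sagittal fraction 6 the sagittal values of the Lss, Cyp51 and Dhcr7 pairs were 0.61, 0.65 and 0.29, and those over the other 21 fractions 0.89, 0.865 and 0.82. Over these 21 Fdft1 with Sqle had 0.868.

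Of the other pairs, Fdft1 with Sqle, the consecutive squalene enzymes, had 0.74, Mvd with Fdft1 0.71 and Hmgcs1 with Sqle 0.66. Fdps had negative r to Lss (-0.39), Mvd (-0.26), Cyp51 (-0.24) and Dhcr7 (-0.21) and positive r to Sqle (0.38), Hmgcs1 (0.36) and Fdft1 (0.20). Over the fractions other than sagittal fraction 6 these were -0.28, -0.19, -0.15 and -0.10, and 0.35, 0.25 and 0.34. In the sagittal series Fdps had 0.83 with Sqle and 0.76 with Hmgcs1, and 0.56 and 0.15 without sagittal fraction 6. The pairs also differed by axis. In the coronal series 26 of 28 were positive, and in the sagittal series 15 of 28 were negative, with a median of -0.05. Without sagittal fraction 6 there were 9 negative pairs and the median was 0.26. Hmgcs1 had sagittal r of -0.97 with Lss and -0.91 with Dhcr7, and 0.63 and 0.84 with them in the coronal series. Without sagittal fraction 6 the sagittal value with Lss was -0.55 and with Dhcr7 -0.97.

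**Figure D4:**
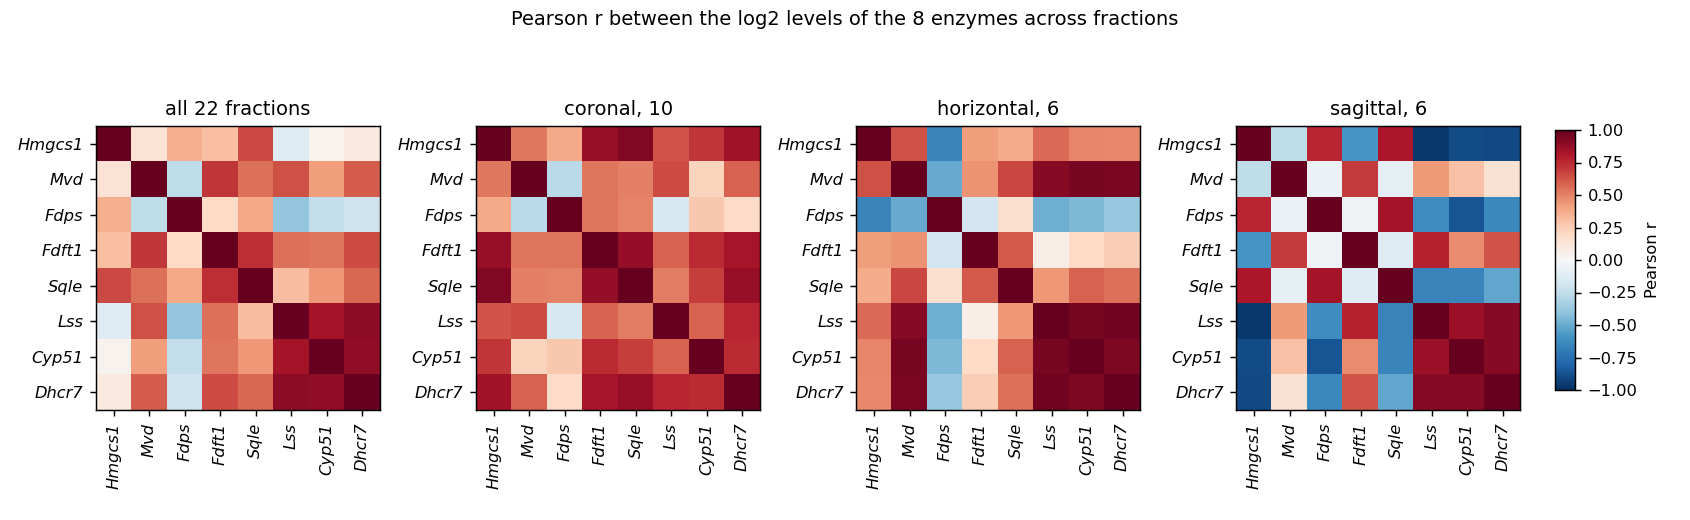
Pearson r between the log2 levels of each pair of the 8 enzymes over all 22 fractions and within each series (10, 6 and 6 fractions), from -1 (blue) to 1 (red), with genes in pathway order. Lss, Cyp51 and Dhcr7 are positive with each other in all 4 panels (0.59 to 0.96), in the coronal panel 26 of 28 pairs are positive, in the horizontal panel Mvd has 0.91 to 0.95 with these 3, and the sagittal panel has 15 negative pairs (9 without fraction 6).

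The 11 other enzymes of the pathway examined also varied little, with a median SD over 22 fractions of 0.28, against 0.33 for the members. Along the coronal series 1 fell, against 7.43% of all probes, 10 did not pass and none rose. Lbr fell by 1.87 on the log2 scale (SE 0.49, adjusted p = 0.0265). Lbr encodes a sterol C14-reductase that is also a receptor for lamin B in the nuclear envelope. Idi1, isopentenyl diphosphate isomerase, lay between 3.57 and 4.10 in the coronal series with an adjusted p of 0.480. None of the 11 passed along the horizontal series, where 6.57% of all probes did (Sc5d had the lowest adjusted p, 0.113). Pmvk, phosphomevalonate kinase, was the 1 of 11 that passed in the sagittal linear term (1.17 ± 0.34 (SE), adjusted p = 0.0419), near the 10.2% of all probes that did.

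Of the 7 SREBP regulators, 2 rose, 1 fell and 4 did not pass along the coronal series, where 12.4% of all probes rose and 7.43% fell. Mbtps2, the site-2 protease that releases SREBP, rose by 1.23 ± 0.24 (SE; adjusted p = 0.0066), and Scap, the SREBP escort, passed with a linear change of 0.37 ± 0.25 (SE; adjusted p = 0.0244). Srebf1, which favours fatty acid genes, fell by 0.83 on the log2 scale (SE 0.19, adjusted p = 0.0180). Srebf2, the main driver of cholesterol genes, lay between -1.18 and -0.54 (adjusted p = 0.258). Along the horizontal series Srebf2 rose by 1.74 ± 0.31 (SE; adjusted p = 0.00457), from -3.69 in fraction 1 over -1.84, -1.84, -1.25 and -0.91 to -1.93 in fraction 6, and Srebf1 by 0.82 ± 0.22 (SE; adjusted p = 0.0381). Insig1 was between -0.15 and 0.37 in the coronal series (adjusted p = 0.498) and between -0.58 and 0.43 in the horizontal (adjusted p = 0.0841). Fractions 1 to 3 of the horizontal series are the out-of-range arrays, and their part in these values was not tested. The same holds for the horizontal calls of Acss2, Apoe and Fntb below. Along the horizontal series calls over all probes fell from 2604 to 9 without fraction 1 and to 38 with a107 as a covariate.

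Of 6 SREBP target genes outside cholesterol synthesis, 1 rose and 5 did not pass along the coronal series, near the 19.8% of all probes that passed. Fasn, fatty acid synthase, rose by 0.79 ± 0.23 (SE; adjusted p = 0.0111). Acss2, acetyl-CoA synthetase, was the 1 of 6 that passed along the horizontal series (1.07 ± 0.22 (SE), adjusted p = 0.0288), where 6.57% of all probes did.

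Of 13 tested genes of sterol export, transport and turnover, 2 rose, 1 fell and 10 did not pass along the coronal series, near the 19.8% of all probes that passed. Lpl, lipoprotein lipase, rose by 1.89 ± 0.36 (SE; adjusted p = 0.000216) and Abca1, a cholesterol exporter, passed with a change of 0.31 ± 0.26 (SE; adjusted p = 0.0397). Lcat, which esterifies cholesterol on lipoproteins, fell by 1.05 on the log2 scale (SE 0.35, adjusted p = 0.0391). Apoe, the main brain apolipoprotein, made largely by astrocytes, lay between 7.69 and 8.78 in the coronal series (adjusted p = 0.102) and rose along the horizontal by 1.54 ± 0.31 (SE; adjusted p = 0.0270), with 7.69, 7.31, 7.82, 8.42, 8.68 and 8.91 in fractions 1 to 6. Along that axis 3 of 8 astrocyte markers rose and none fell, where 6.57% of all probes passed, their mean level lay between 2.49 and 3.75, and their part in the Apoe values was not tested. Calls over all probes along the horizontal axis fell from 2604 to 38 with a107 as a covariate and to 9 without fraction 1. Cyp46a1, the neuronal cholesterol 24-hydroxylase, lay between -0.93 and 0.77 in the coronal series (adjusted p = 0.0783). Of 6 genes of other mevalonate branches, Dhdds, a subunit of the dolichol-making enzyme, passed in the coronal series (0.24 ± 0.22 (SE), adjusted p = 0.0362), Fntb, the beta subunit of farnesyltransferase, in the horizontal (1.04 ± 0.22 (SE), adjusted p = 0.0238) and Fnta, its alpha subunit, in the sagittal linear term (1.11 ± 0.31 (SE), adjusted p = 0.0323). That is 1 of 6 in each, where 19.8%, 6.57% and 10.2% of all probes passed.

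The 6 genes most like the members in profile were on none of the pathway lists. Among 13663 genes with a RefSeq probe well above background on every array, those with the highest Pearson r over 22 fractions with the mean of the members, each centred on its own mean, were Ppp2r2a (0.93), Atp9a (0.92), B4galnt1 (0.92), Nsg1 (0.91), Slc35e4 (0.91) and L1cam (0.91). Ppp2r2a is a regulatory subunit of protein phosphatase 2A, B4galnt1 makes complex gangliosides and L1cam is a neural adhesion molecule. Within the sagittal series their r ran from 0.51 for Atp9a to 0.94 for L1cam. Of the 11 other pathway enzymes examined Hsd17b7 came closest (0.73, rank 1197), Idi1 had -0.36 and Lbr -0.72. Fasn, at 0.80 (rank 544), was the closest of the SREBP targets outside synthesis.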

How the data were processed

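Total RNA of 22 brain fractions was labelled with Cy3 and hybridised to 1-colour Agilent mouse arrays designed on mm9. Per the file headers, the authors extracted a background-subtracted processed intensity per spot with Feature Extraction 10.10.1.1. A table of log2 values that the authors deposited beside the scanner files has the same scale, centring and direction, since 99.9% of its entries lay within 0.02 of the values used here. Control and outlier spots were left out, spots of a probe were averaged, and log2 intensity minus the array's 75th percentile was taken for 55600 probes. The number of arrays limits the precision. Symbols came from RefSeq (26553 of 28087 RefSeq probes matched). Members, lists and tests were chosen with earlier results of these data known. Beside the members and Mbp, the text names 5 preset genes, up to 4 more called genes per list by fitted coronal range, and the 6 most alike, and some genes of the lists are not reported here. Tests used limma 3.58.1 (R 4.3.3) with 9 coefficients and 13 residual degrees of freedom, tested on simulated data, and Benjamini-Hochberg adjustment at 0.05. Scaling, background correction (normexp, offset 50, on median signals, as no mean signal was in the files), detection filter, spike-in, slide, model and left-out fractions were varied.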

Additional observations from a re-analysis of the deposited data

Results flagged for a closer look

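In 30 sets of fractions (8 members and 2 Mbp probes in 3 series), 5 held a fraction whose gap to its nearest neighbour exceeded Dixon's 95% critical value. For independent values chance flags about 1 in 20. The sets share arrays and fractions are ordered positions, so the count cannot be read against that rate. Hmgcs1 in sagittal fraction 6 was at 7.31, with the next at 6.66. Lss in the same fraction was at -1.30, with the next at -0.57. The Mbp probe A_52_P604195 there was at 1.75, with the next at 2.60. Mvd in coronal fraction 10 was at 2.25, with the next at 2.91. The Mbp probe A_52_P604195 in horizontal fraction 2 was at 2.09, with the next at 2.43.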

How the results depend on the processing

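The 3 coronal calls among the members (19.8% of all probes) became 6 with normexp background correction (23.2%), 5 over probes detected on all 22 arrays (32.8%), 1 with a107 as a covariate (10.9%), 1 with linear terms only (7.12%), and 0 with linear terms on the in-range arrays (1.19%), with the coronal arrays alone (1.6%) and with slide as a fixed block (4.03%; chosen after seeing the data). They were 4 with median centring (14.3%), quantile normalization (16.8%) and the authors' table (19.8%). Without scaling, 2652 of all probes rose and 2453 fell along the coronal series, against 4906 and 2944, 1125 and 1181 along the horizontal, against 1563 and 1041, and 60 and 2705 in the sagittal linear term, against 3077 and 968. Along the horizontal series these were 1026 and 198 with median centring and 2618 and 608 with quantile normalization, which gave 1116 and 758 in the sagittal linear term. Leaving out 1 fraction gave 1 to 6 coronal calls among the members, where 12.3% to 27% of all probes passed. The 0 calls of the sagittal linear term (10.2% of all probes) became 1 (Lss) without scaling (6.98%) and over probes detected on all 22 arrays (18.9%). They also became 1 (Lss) with a107 as a covariate (6.38%) and with slide as a random (11.8%) or fixed block (11.9%). With 1 fraction left out they were 0 to 1, where 0% to 12.5% of all probes passed. Horizontal calls stayed at 0 in every setting, as did those of the sagittal quadratic term in every setting run. Minus Mbp, the 1 coronal call (53.1% of all probes) became 3 with normexp (85.7%) and 2 over probes detected on all 22 arrays (68.6%). It became 8 with the probe A_52_P329451 (93.7%), and 1 to 3 with 1 fraction left out. It became 0 with linear terms on in-range arrays (0.222%), with linear terms only (2.8%) and with slide as a fixed block. The 0 horizontal calls (1.68% of all probes) became 8 with A_52_P329451 (99.3%). The 1 sagittal linear call (26.4% of all probes) became 2 over probes detected on all 22 arrays (43.8%), and 0 to 3 with 1 fraction left out. It became 0 with quantile normalization (24.4%), linear terms on in-range arrays (0%), linear terms only (0.00252%) and A_52_P329451 (0%). The 3 sagittal quadratic calls (12.2% of all probes) became 1 without a detection filter (6.22%) and 8 with A_52_P329451 (97.4%). They became 0 with quantile normalization (0.0227%), a107 (7.59%) and the sagittal arrays alone (0%), and 0 to 3 with 1 fraction left out. Signs turned for Mvd along the coronal series without fraction 10 (leaving out 1 fraction gave -0.51 to 0.19), for Hmgcs1 minus Mbp in the sagittal linear term without fraction 6 (-0.0215 to 1.59) and with A_52_P329451 (-0.49), and for Sqle minus Mbp in the sagittal quadratic term without fraction 6 (-0.0486 to 1.02). The causes were not tested. Among values that did not pass, the sagittal linear changes of Hmgcs1, Fdps and Sqle turned negative without scaling. No paired analysis was possible because the fraction numbers are positions and not replicates.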
